A study of Mus musculus with 4 samples.

Results

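Rhox5, Rhox6 and Rhox9 are homeobox genes of the Rhox (reproductive homeobox) cluster on the mouse X chromosome. They were taken by name from the deposited table, as 3 of its 22266 genes, and all 3 passed the filter on low values. They were picked because of how they read in the libraries compared below, so their differences between groups are given as a description without a test. RNA selected on its poly(A) tails was sequenced from female mouse embryonic stem cells of the PGK12.1 background, grown on gelatin in serum with leukemia inhibitory factor. In every library the cells carry floxed Cbx2 with a HaloTag. The OHT group (n = 2, labelled Knockout, day 2) received 1.0 µM 4-hydroxytamoxifen for 48 hours to delete Cbx2. The EtOH group (n = 2, labelled Wildtype, day 0) received ethanol and keeps Cbx2, which encodes a chromodomain subunit of Polycomb repressive complex 1 (PRC1). Effects of the drug, of time in culture and of the deletion cannot be told apart, since no library used here has 4-hydroxytamoxifen on cells that keep Cbx2. All 4 libraries carry the same batch number in the labels, 2. The labels name neither the recombinase nor the number of clones, and do not say that replicates were separate cultures, so spreads may be technical.

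Rhox genes encode homeodomain transcription factors, DNA-binding proteins used mainly in testis, ovary and placenta. Rhox5, first described as Pem, is the founding member and is known from Sertoli cells of the testis, granulosa cells of the ovary, extraembryonic tissue and embryonic stem cells. Rhox6 and Rhox9, first described as Psx1 and Psx2, are known from placenta and germ cells. Much of the cluster is kept silent by promoter DNA methylation in somatic tissue, and linker histone H1 has been linked to its silencing in mouse embryonic stem cells. Canonical PRC1, which holds CBX2, compacts chromatin at developmental genes.

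The deposited table lists Rhox5 as ENSMUSG00000095180.11, Rhox6 as ENSMUSG00000006200.4 and Rhox9 as ENSMUSG00000068048.9. In GENCODE release 21 (GRCm38), whose versions of these identifiers are older, Rhox5 lies at chrX:37804842-37808876 on the plus strand, Rhox6 at chrX:37826910-37829857 on the plus strand, and Rhox9 at chrX:37899097-37901770 on the minus strand. Each is protein-coding with 4 exons in the transcript compared here. The gap between the Rhox5 and Rhox6 gene models is 18.0 kb, and that between Rhox6 and Rhox9 is 69.2 kb. All 3 share a coding exon of 46 bases (exon 3), part of the homeobox. It is shown because it puts the likeness of Rhox6 and Rhox9, and their distance from Rhox5, in plain view. The stretches are chrX:37806074-37806119 (plus) in Rhox5, chrX:37828415-37828460 (plus) in Rhox6 and chrX:37900280-37900325 (minus) in Rhox9. Capitals mark bases that differ from Rhox6, read 5′ to 3′ on the coding strand from the GENCODE transcripts.
Rhox5: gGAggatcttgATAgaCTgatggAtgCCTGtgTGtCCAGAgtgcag
Rhox6: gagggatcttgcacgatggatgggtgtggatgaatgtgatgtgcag
Rhox9: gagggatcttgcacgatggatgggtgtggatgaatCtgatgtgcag
Over these 46 bases Rhox9 differed from Rhox6 at 1 base, while Rhox5 differed from Rhox6 at 19 and from Rhox9 at 18.

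Rhox6 and Rhox9 have coding sequences of equal length (681 bases), of which 617 bases, or 90.6%, are identical without gaps, against a coding length of 639 bases in Rhox5. Identity was 96.3% in the coding part of exon 1, 91.1% in exon 2, 97.8% in exon 3 and 79.6% in exon 4, and the longest identical run held 161 bases. The last 120 bases of exon 2 (chrX:37827706-37827825, plus, in Rhox6 and chrX:37900952-37901071, minus, in Rhox9), where the homeobox begins, show stretches that differ and stretches that do not, and capitals mark the 20 bases at which the genes differ.
Rhox6: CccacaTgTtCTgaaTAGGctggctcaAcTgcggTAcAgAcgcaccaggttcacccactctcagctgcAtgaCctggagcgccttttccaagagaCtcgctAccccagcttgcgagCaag
Rhox9: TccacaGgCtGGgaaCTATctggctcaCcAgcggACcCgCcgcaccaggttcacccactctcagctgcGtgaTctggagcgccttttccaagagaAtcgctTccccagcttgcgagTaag
The differences crowd at the start of this stretch and are sparse after it. Of the 980 different 31-base words in Rhox6 transcripts, 228 also occur in Rhox9 (23.3%), and none occurs in another gene. Rhox9 transcripts hold 2512 such words, 9.1% of them shared with Rhox6. They thus include sequence beyond the 882-base Rhox9 transcript compared here. Rhox5 has 724 such words and shares 0 of them with any other gene. Reads from the shared stretches can be split between Rhox6 and Rhox9, so their single values are uncertain and their sum is given beside them.

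**Figure D1:**
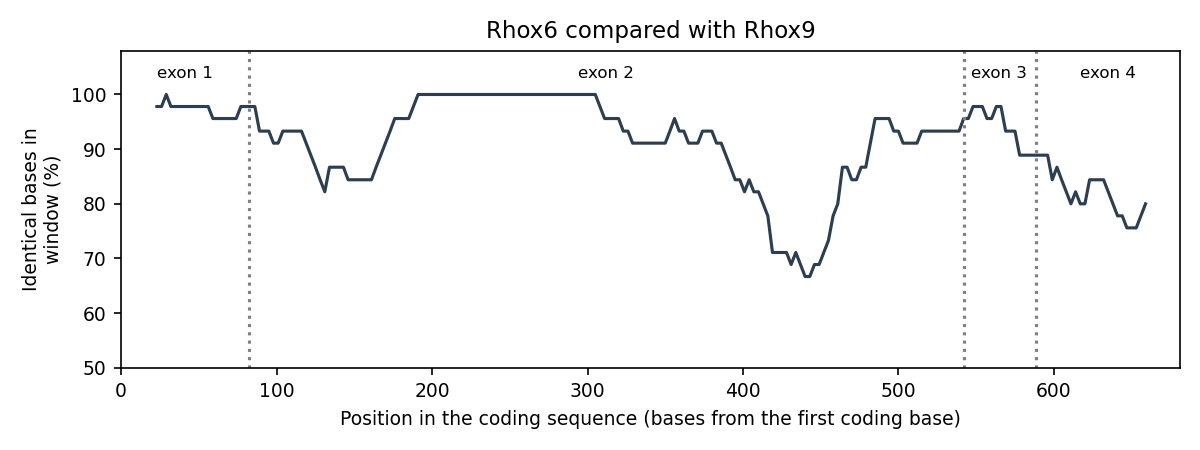
Share of identical bases between the Rhox6 and Rhox9 coding sequences in windows of 45 bases (y axis, percent), along the coding sequence (x axis, bases), with dotted lines at exon borders. Windows in exon 1 and the earlier part of exon 2 reach 100%, and the lowest, in the later part of exon 2, is at 66.7%.

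RefSeq places the start of Rhox5 at chrX:37754608 on GRCm38.p6, 50.2 kb before the GENCODE model, and its promoter is the only one of the 3 for which a sequence was at hand. It is shown because Rhox5 is the most abundant member and its upstream promoter is known to answer to ETS and Sp1 family factors. Which start the transcripts used was not measured, and which of these Rhox5 models the deposited TPM covers is unknown. The window (chrX:37754358-37754657, plus strand, 250 bases before to 50 after the start) carries in capitals the matches to the searched motifs.
Rhox5 promoter: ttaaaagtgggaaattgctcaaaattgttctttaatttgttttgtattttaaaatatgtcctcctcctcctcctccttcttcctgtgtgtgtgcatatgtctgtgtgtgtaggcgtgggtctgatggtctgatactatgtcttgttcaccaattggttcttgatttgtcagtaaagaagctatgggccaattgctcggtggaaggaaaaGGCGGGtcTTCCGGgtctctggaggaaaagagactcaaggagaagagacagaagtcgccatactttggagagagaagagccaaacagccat
Searched on both strands, the GC box core GGCGGG stood once, beginning at -41, and the ETS core CCGGAA once, on the minus strand, beginning at -33. Of 32851 RefSeq promoter windows of this length, 35.3% hold GGCGGG and 14.9% hold CCGGAA. Another GC box core, GGGCGG, which can overlap the first and is held by 35.7% of windows, is not in this one. Neither is the E-box CACGTG, held by 7.2% of windows. The TATA box letters TATAAA, held by 13.6%, are not there either. The window holds 5 CpG dinucleotides at 43.7% GC, beside medians of 7 and 47.8% over 26 other Rhox promoters and 7 and 52.7% over all windows.

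By group means, Rhox9 read 42.4% lower in the OHT libraries than in the EtOH libraries, Rhox6 37.4% lower and Rhox5 11.9% lower. Values are TPM, each gene's share of all transcripts after correction for transcript length, and how many reads stand behind them is unknown. Rhox5 was read at 85.3 and 76.8 TPM in the OHT libraries, against 92.3 and 91.9 TPM in the EtOH libraries. The groups did not overlap in TPM, the nearest libraries being 6.54 TPM apart, while the OHT pair itself was further apart than that. Its mean was 81.1 ± 5.997 TPM with OHT and 92.1 ± 0.293 TPM with EtOH (SD, n = 2 each), and the difference of mean log2(TPM + 1) was -0.18 (pooled SD 0.07). With median of ratios scaling Rhox5 stood at 92.0 and 68.9 in the OHT libraries and 94.8 and 91.1 in the EtOH libraries, so the groups then overlapped, as they did under quantile normalization.

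Rhox6 was read at 21.4 and 19.6 TPM in the OHT libraries, against 33.5 and 32.04 TPM in the EtOH libraries. The groups stood well apart, with 10.6 TPM between the nearest libraries. The mean was 20.5 ± 1.32 TPM with OHT and 32.8 ± 1.00 TPM with EtOH (SD, n = 2 each), a log2 difference of -0.65 (pooled SD 0.07).

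Rhox9 was read at 22.7 and 20.7 TPM in the OHT libraries, against 40.8 and 34.5 TPM in the EtOH libraries. Here too every OHT library was below every EtOH library, and the EtOH pair was the wider. The mean was 21.7 ± 1.37 TPM with OHT and 37.7 ± 4.44 TPM with EtOH (SD, n = 2 each), a log2 difference of -0.77 (pooled SD 0.13).

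Summed, which largely removes the effect of how reads were split between them, Rhox6 and Rhox9 stood at 44.1 and 40.3 TPM in the OHT libraries, against 74.3 and 66.6 TPM in the EtOH libraries. The sum was 40.1% lower by group means, and its log2 difference was -0.72 (pooled SD 0.10). In bulk RNA, fewer cells that express a gene and less RNA per cell cannot be told apart. Both Rhox6 and Rhox9 kept apart from their EtOH values under median of ratios scaling, quantile normalization and removal of each library's trend with transcript length and GC content. That trend used the longest transcript of each gene, which for Rhox9 may not be the transcript compared above. All 3 genes lay lower without overlap, a pattern shared by 2332 of 12029 genes tested (19.4%); since they were chosen on this contrast, nothing is read from their count. With 2 libraries in each group, the smallest two-sided p of an exact permutation test is 0.333.

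**Figure D2:**
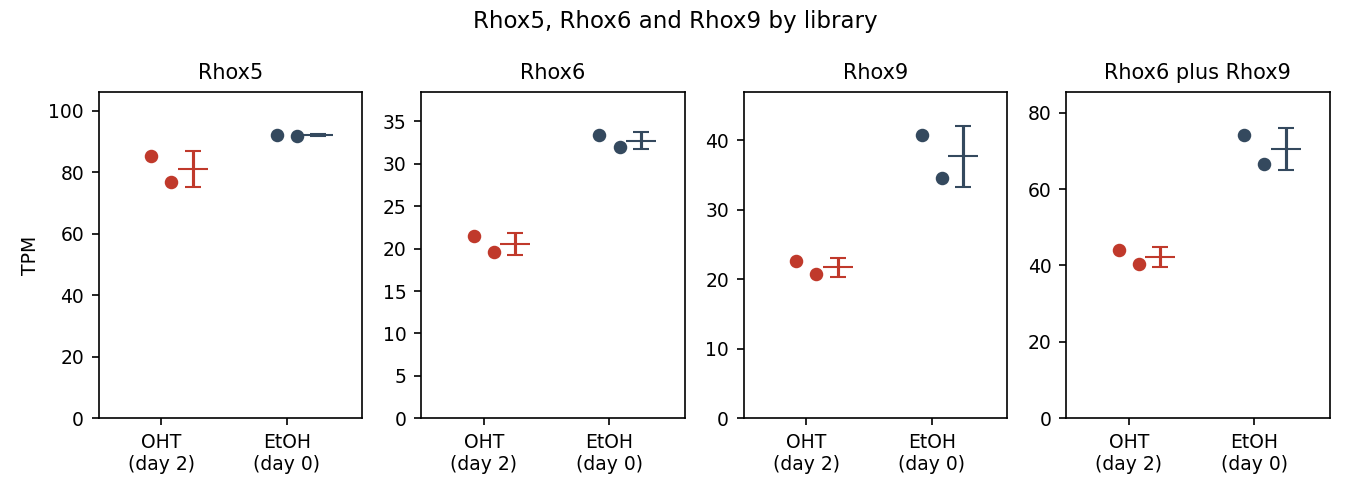
TPM (y axes, from 0) of Rhox5, Rhox6, Rhox9 and the sum of Rhox6 and Rhox9 in each library (points), with the mean and SD of each group (n = 2) beside them. The OHT points of Rhox6 (19.6 to 21.4) and Rhox9 (20.7 to 22.7) lie far below their EtOH points, and those of Rhox5 (76.8 to 85.3) slightly below.

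The balance among the 3 genes differed between the groups, given here as a description. Rhox5 was 3.98 and 3.93 times Rhox6 in the OHT libraries, against 2.76 and 2.87 times in the EtOH libraries. The ratio of Rhox6 to Rhox9 was 0.946 and 0.944 in the OHT libraries, against 0.820 and 0.928 in the EtOH libraries. That ratio was nearly equal in 3 of the 4 libraries, and EtOH replicate 1, with the highest Rhox9 value, stood lowest.

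Among all 12029 genes tested, ordered from the most negative log2 difference, Rhox9 came at place 100, Rhox6 at 162 and Rhox5 at 2003. The 1st percentile of all genes was -0.71 and the 5th was -0.36, so Rhox9 lay beyond the 1st, Rhox6 between the 1st and the 5th, and Rhox5 inside the bulk of genes. By level in the EtOH libraries, Rhox5 exceeded 86.0% of the genes tested, Rhox9 70.3% and Rhox6 67.2%.

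The rest of the cluster did not share one direction. Of the 34 Rhox genes in the table, which span 916.2 kb from Rhox1 to Rhox13, 31 are not among the 3. Of these, 8 were listed at 0 in all 4 libraries (Rhox3a, Rhox3c, Rhox3g, Rhox4b, Rhox4f, Rhox8, Rhox11 and Rhox12). Another 13 were above 0 in some library but averaged under 1 TPM: Rhox2d to Rhox2h, Rhox3a2, Rhox3e, Rhox3f, Rhox3h, Rhox4c, Rhox4d, Rhox7a and Rhox7b, with 1.75 TPM as the highest single value. Rhox7a, Rhox8 and Rhox7b, which sit between Rhox6 and Rhox9, are all in these near-silent sets. The remaining 10 were tested with limma on log2(TPM + 1), and none passed an adjusted p of 0.05 over all genes, a threshold that 0.00831% of genes passed as higher and 0.0333% as lower. At an unadjusted p under 0.05 stood 2, both higher, and none lower, where 6.02% of all genes were higher and 4.46% lower.

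Those 2 were Rhox4g, at 2.42 and 3.21 TPM in the OHT libraries against 1.56 and 1.503 TPM in the EtOH libraries (log2 fold change 0.59, SE 0.19, limma adjusted p = 0.369), and Rhox10, at 2.67 and 3.47 TPM against 2.02 and 1.61 TPM (0.53, SE 0.19, limma adjusted p = 0.435). Rhox10 is known from early male germ cells. In both, each OHT library lay above each EtOH library. Rhox2a was read at 18.4 and 18.6 TPM in the OHT libraries, against 26.2 and 21.4 TPM in the EtOH libraries (log2 fold change -0.34, SE 0.16, limma adjusted p = 0.526). Rhox2c was read at 1.28 and 0.976 TPM with OHT, against 1.87 and 1.6 TPM with EtOH (-0.36, SE 0.17, limma adjusted p = 0.541). Of the 10, the groups did not overlap for 3 that were higher and 4 that were lower, beside 23.1% and 19.4% of all genes tested, and the median log2 fold change was 0.03, with 0.02 over all genes.

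Rhox1, at the far end of the cluster, was read at 30.1 and 28.3 TPM in the OHT libraries, against 25.3 and 23.0 TPM in the EtOH libraries, and its groups overlapped under median of ratios scaling and quantile normalization. Rhox13, at the other end, read 6.18 and 6.08 TPM with OHT, against 6.24 and 6.88 TPM with EtOH. Rhox2b (3.35 and 3.48 TPM with OHT, 3.81 and 4.41 TPM with EtOH) was lower in both OHT libraries, while Rhox4a, Rhox4a2 and Rhox4e overlapped between groups. Tandem copies within Rhox2 and Rhox4 can share reads too. Summed over the 8 Rhox2 genes, TPM was 25.5 and 25.9 with OHT, against 33.5 and 29.6 with EtOH, and over the 8 Rhox4 genes it was 12.6 and 11.3 with OHT, against 9.43 and 8.44 with EtOH. The Rhox3 genes summed to 1.01 and 0.812 TPM with OHT, against 0.320 and 0.131 TPM with EtOH, all at low levels. Rhox7a and Rhox7b summed to 0.665 and 0.0869 TPM with OHT, against 0.736 and 2.27 TPM with EtOH, where EtOH replicate 2 alone was above 1 TPM.

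The order of levels therefore differed between the groups. In the EtOH libraries Rhox5 stood first, then Rhox9, Rhox6, and Rhox1 and Rhox2a, whose values overlapped. In the OHT libraries Rhox5 again stood first, with Rhox1 next, then Rhox9 and Rhox6, whose values overlapped, and then Rhox2a. Rhox6 and Rhox9 together made up 21.2% and 20.9% of the summed Rhox TPM in the OHT libraries, against 30.4% and 28.9% in the EtOH libraries. Rhox5 held 41.0% and 39.8% with OHT, against 37.8% and 39.9% with EtOH. The summed TPM of the other Rhox genes was 78.7 and 75.9 with OHT, against 77.6 and 72.0 with EtOH, and overlapped.

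**Figure D3:**
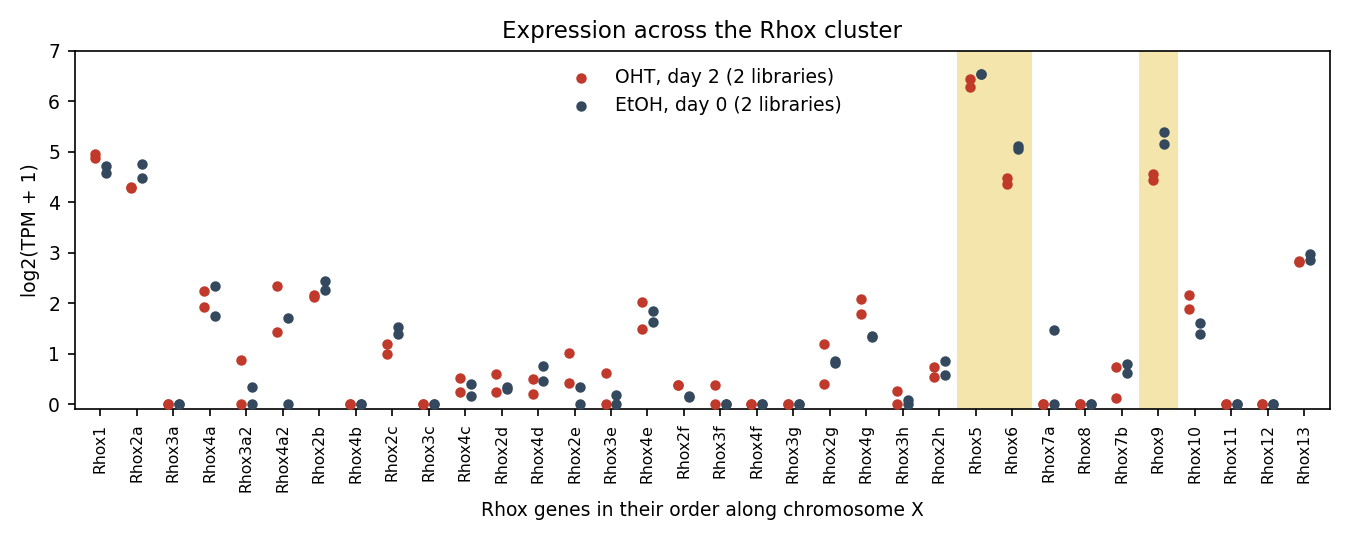
Log2(TPM + 1) of every Rhox gene in the table (y axis), in chromosomal order (x axis), with 1 point per library and Rhox5, Rhox6 and Rhox9 shaded. Rhox5, Rhox6, Rhox9, Rhox1 and Rhox2a carry most of the signal, and Rhox6 and Rhox9 show the widest gap between the OHT and EtOH points among these 5.

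The genes around the cluster gave the local background. The list for the flanks held 22 names, with Septin6 also under its older name Sept6. From it 16 genes were tested and none passed in either direction. At an unadjusted limma p under 0.05 stood 1 lower (6.25%, beside 4.46% of all genes) and none higher (beside 6.02%). The groups did not overlap for 3 that were higher and 3 that were lower (18.8% each, beside 23.1% and 19.4% of all genes). The 1 past the unadjusted p was Ube2a, a ubiquitin-conjugating enzyme gene, at 267 and 260.5 TPM in the OHT libraries, against 373 and 334 TPM in the EtOH libraries (log2 fold change -0.42, SE 0.10, limma adjusted p = 0.267). Ndufa1, a respiratory complex I subunit gene, read 520.3 and 453 TPM with OHT, against 412 and 423 TPM with EtOH. Mcts1, a translation factor gene, read 106 and 90.2 TPM with OHT, against 114 and 120 TPM with EtOH, and the lysosomal membrane protein gene Lamp2 read 26.6 and 35.5 TPM with OHT, against 23.9 and 26.6 TPM with EtOH. The flanking genes' median log2 fold change was -0.0037.

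Across the X chromosome, 491 genes outside the Rhox cluster were tested, and none passed in either direction. Their median log2 fold change was 0.01, beside 0.02 over 11499 autosomal genes. The X-linked median was 0.13 without OHT replicate 1 and -0.12 without OHT replicate 2, and the median of all genes tested moved with it, to 0.14 and -0.09. At an unadjusted limma p under 0.05 stood 21 higher (4.28%) and 27 lower (5.50%), near the shares over all genes (6.02% and 4.46%). Without overlap, beside 23.1% and 19.4% of all genes, 22.0% of the X-linked genes were higher and 17.5% lower. Those with the smallest p were Sms, the spermine synthase gene (112 and 117 TPM with OHT, 176 and 180 TPM with EtOH; log2 fold change -0.63, SE 0.09), Glod5 (15.4 and 14 TPM with OHT, 27.3 and 25.1 TPM with EtOH; -0.79, SE 0.15), Tmsb15l (-0.89, SE 0.17) and the tetraspanin gene Tspan7 (0.81, SE 0.16), with limma adjusted p from 0.129 for Sms to 0.226 for Tspan7. Of 5 X inactivation genes listed, the deposited table holds only 1 by name, Rlim, at 27.4 and 38.8 TPM with OHT, against 32.5 and 34.7 TPM with EtOH. The others, Xist among them, are absent from it, so their levels are unknown.

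The factors that are known to act on Rhox genes were read next. Of 14 listed regulators of the Rhox5 promoters (ETS and Sp1 family factors, Ras genes, the androgen receptor and GATA factors), 12 were tested. None passed, and none had an unadjusted limma p under 0.05 in either direction, beside 6.02% of all genes higher and 4.46% lower. The groups did not overlap for 1, higher (8.33%, beside 23.1% of all genes), and none was lower without overlap (beside 19.4%). Gata4 read 1.08 and 1.53 TPM with OHT, against 0.835 and 0.973 TPM with EtOH. Nras read 68.5 and 80.9 TPM with OHT, against 80.3 and 88.7 TPM with EtOH, and Sp3 read 41.7 and 56.5 TPM with OHT, against 51.3 and 54.9 TPM with EtOH. Gata1 read 5.00 and 4.03 TPM with OHT, against 4.93 and 5.06 TPM with EtOH, so all but Gata4 of these 4 overlapped.

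Of 7 linker histone genes, 5 were tested and none passed. At an unadjusted limma p under 0.05 stood 3 higher (60.0%, beside 6.02% of all genes) and none lower (beside 4.46%). The groups did not overlap for 4, all higher (80.0%, beside 23.1% of all genes), and none was lower (beside 19.4%). With 5 genes tested, these shares are coarse. The median log2 fold change was 0.69. H1f0 was read at 37.0 and 43.3 TPM in the OHT libraries, against 24.8 and 24.0 TPM in the EtOH libraries (log2 fold change 0.69, SE 0.14, limma adjusted p = 0.234). H1f2 was read at 23.6 and 19.5 TPM with OHT, against 11.6 and 12.9 TPM with EtOH (0.77, SE 0.17, limma adjusted p = 0.265), and H1f1 at 4.01 and 4.12 TPM with OHT, against 2.16 and 2.09 TPM with EtOH (0.70, SE 0.17, limma adjusted p = 0.280). H1f5 (1.69 and 1.70 TPM with OHT, 1.29 and 0.777 TPM with EtOH) and H1f10 (146 and 127 TPM with OHT, 131 and 129 TPM with EtOH) complete the genes tested, and the groups overlapped for H1f10. As background, replication-dependent H1 mRNAs such as H1f1, H1f2 and H1f5 normally lack the tail on which the RNA was selected, so their TPM covers only the tailed part. The part of linker histones in the Rhox values was not tested.

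Of 13 genes of the DNA methylation machinery, 12 were tested and none passed. At an unadjusted limma p under 0.05 stood 1 higher and 1 lower (8.33% each, beside 6.02% and 4.46% of all genes). The groups did not overlap for 1 that was higher (8.33%, beside 23.1% of all genes) and 4 that were lower (33.3%, beside 19.4%). The median log2 fold change was -0.12, with 0.02 without OHT replicate 1 and -0.36 without OHT replicate 2. By unadjusted p, the lower was Dnmt3b, a de novo methyltransferase gene, at 45.2 and 62.6 TPM in the OHT libraries, against 74.4 and 77.9 TPM in the EtOH libraries (log2 fold change -0.51, SE 0.17, limma adjusted p = 0.397). The higher was Tet3, which encodes an enzyme that oxidises 5-methylcytosine, at 3.97 and 6.93 TPM with OHT, against 2.68 and 3.19 TPM with EtOH (0.68, SE 0.26, limma adjusted p = 0.454). Dnmt3a read 37.2 and 48.1 TPM with OHT, against 48.8 and 54.7 TPM with EtOH, and the chromatin remodeller gene Hells overlapped between groups (186 and 262 TPM with OHT, 257 and 312 TPM with EtOH). DNA methylation itself was not measured.

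Of 15 genes of H3K9 methylation and silencing, all tested, none passed and 4 were lower at an unadjusted limma p under 0.05 (26.7%, beside 4.46% of all genes), with none higher (beside 6.02%). Lower without overlap were 4 (26.7%, beside 19.4% of all genes), and higher was 1 (6.67%, beside 23.1%). The median log2 fold change was -0.08, with 0.16 without OHT replicate 1 and -0.345 without OHT replicate 2. The 4 lower by unadjusted p were the heterochromatin protein genes Cbx1 (log2 fold change -0.38, SE 0.09) and Cbx3 (-0.29, SE 0.10), the corepressor gene Trim28 (-0.28, SE 0.09) and Mphosph8, a subunit gene of the HUSH silencing complex (-0.31, SE 0.11). The limma adjusted p ran from 0.267 for Cbx1 to 0.431 for Cbx3. Cbx1 was read at 181 and 190 TPM in the OHT libraries, against 240.1 and 244 TPM in the EtOH libraries, with no overlap.

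Germline genes silenced by promoter DNA methylation, the class to which much of the Rhox cluster belongs, were mostly expressed at a low to moderate level. Of 33 listed, 30 were tested and none passed. At an unadjusted limma p under 0.05 stood 3 lower (10.0%, beside 4.46% of all genes) and none higher (beside 6.02%). The median log2 fold change was -0.09, and the groups did not overlap for 13 that were lower (43.3%, beside 19.4% of all genes) and 5 that were higher (16.7%, beside 23.1%). Ddx4, counted among the lower, stood apart by only 0.0017 TPM. Copies within the Xlr3, Xlr4 and Tuba3 families of this list can share reads, so such genes may not count separately. Among the 4 with the smallest p were the meiotic chromosome genes Syce1 (38.5 and 35.5 TPM with OHT, 49.2 and 49.98 TPM with EtOH) and Hormad1 (87.5 and 88.4 TPM with OHT, 107.7 and 107.9 TPM with EtOH), with log2 fold changes of -0.41 (SE 0.12) and -0.29 (SE 0.10). The others were Magea4 on the X chromosome (33.0 and 31.5 TPM with OHT, 39.4 and 40.7 TPM with EtOH; -0.30, SE 0.12) and Sycp3, a synaptonemal complex gene, which read the other way (22.1 and 21.7 TPM with OHT, 18.1 and 15.8 TPM with EtOH; 0.35, SE 0.15).

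Other genes known from placenta read in both directions. Of 30 placenta and trophoblast genes, 18 were tested and none passed. At an unadjusted limma p under 0.05 stood 2 higher (11.1%, beside 6.02% of all genes) and 1 lower (5.56%, beside 4.46%). The median log2 fold change was 0.19, and it was -0.0077 without OHT replicate 2. Higher without overlap were 8 (44.4%, beside 23.1% of all genes), and lower were 3 (16.7%, beside 19.4%). Fgfr2, the receptor for the FGF signal that maintains trophoblast stem cells, read 4.76 and 6.52 TPM with OHT, against 9.43 and 9.04 TPM with EtOH (log2 fold change -0.64, SE 0.20, limma adjusted p = 0.369). The keratin genes Krt18 (13.4 and 14.6 TPM with OHT, 9.35 and 9.96 TPM with EtOH; 0.49, SE 0.16) and Krt19 (8.99 and 5.68 TPM with OHT, 4.09 and 4.20 TPM with EtOH; 0.67, SE 0.24) read the other way. So did Peg10, an imprinted placental gene (81.9 and 138 TPM with OHT, 67.6 and 74.3 TPM with EtOH; 0.58, SE 0.24). The limma adjusted p of these last 3 ran from 0.392 for Krt18 to 0.482 for Peg10.

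Of 21 other homeobox genes of placenta, egg and germ line, 7 were tested and none passed. At an unadjusted limma p under 0.05 stood 2 higher (28.6%, beside 6.02% of all genes) and none lower (beside 4.46%). Without overlap stood 5, all higher (71.4%, beside 23.1% of all genes), and none lower (beside 19.4%). Pou5f1 and Nanog, pluripotency factor genes, are among the 5, so this share is not one of placental or germline genes alone. The 2 higher by unadjusted p were Crxos (12.5 and 12 TPM with OHT, 8.20 and 8.72 TPM with EtOH; log2 fold change 0.48, SE 0.16, limma adjusted p = 0.400) and the pluripotency factor gene Pou5f1 (2229 and 2106 TPM with OHT, 1856 and 1862 TPM with EtOH; 0.22, SE 0.08, limma adjusted p = 0.430). Obox6 read 2.97 and 2.87 TPM with OHT, against 1.94 and 2.00 TPM with EtOH, and Nanog read 1047 and 1131 TPM with OHT, against 966 and 975 TPM with EtOH. Each of these 4 was higher in both OHT libraries.

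**Figure D4:**
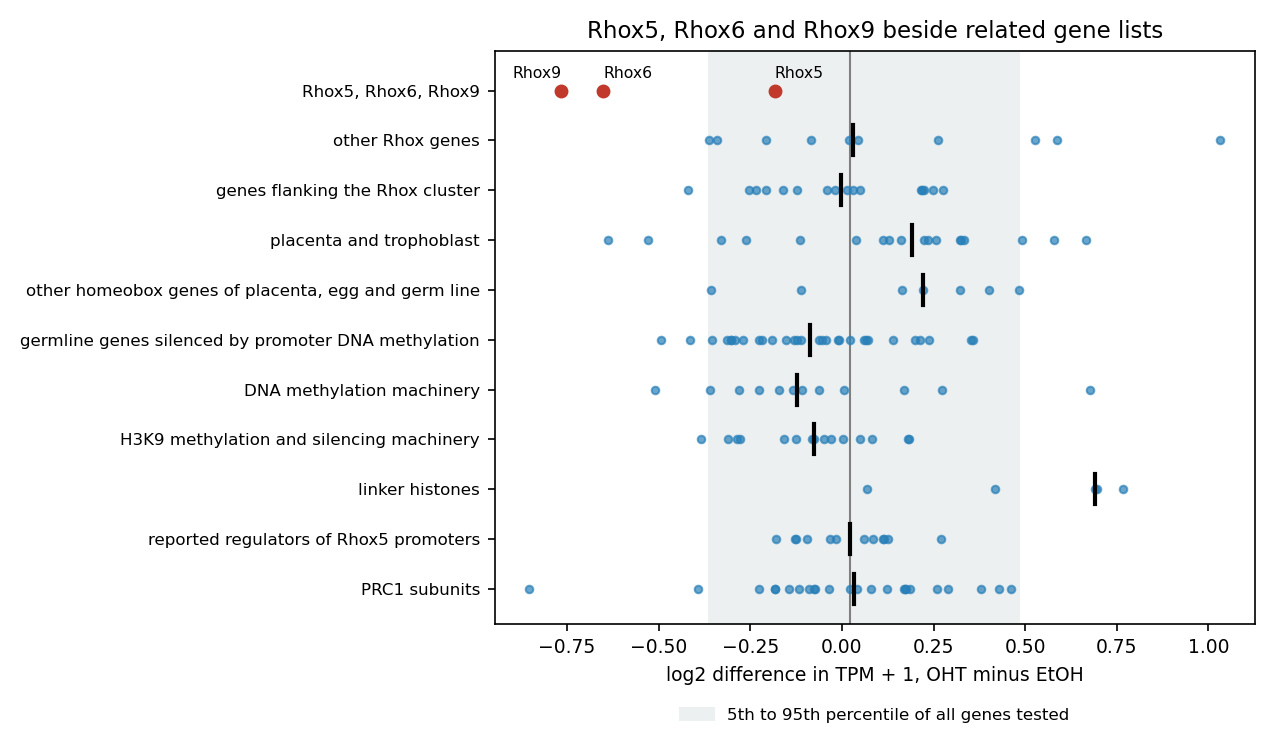
Log2 difference in TPM + 1, OHT minus EtOH (x axis), of Rhox5, Rhox6 and Rhox9 (top row) and of each tested gene of related lists (points, with a bar at the list's median); the grey band spans the 5th to 95th percentile of all genes tested (-0.36 to 0.48) and the grey line their median (0.02). Rhox6 and Rhox9 lie left of the band, while the medians of the lists lie inside it except that of the linker histones (0.69).

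The cells' identity and the deletion were checked from markers. All 10 pluripotency markers were expressed, with a summed 11230 to 12440 TPM in the OHT libraries and 9449 to 9497 TPM in the EtOH libraries. Dppa5a gave the largest part of that sum (7089 and 5623 TPM with OHT, 4733 and 4612 TPM with EtOH). Of 8 trophoblast markers, Tpbpa was at 0 in every library, Cdx2 and Elf5 stayed under 0.32 TPM, and the sum was 17.8 to 19.7 TPM with OHT and 17.4 to 17.7 TPM with EtOH, most of it from Gata3 and Ascl2. Of 7 primordial germ cell markers none was at 0, and their sum was 180 to 184 TPM with OHT and 215 to 219 TPM with EtOH. Dppa3, which is also a naive stem cell gene, was lower in both OHT libraries (72.2 and 58.5 TPM with OHT, 112 and 104 TPM with EtOH), Prdm14 was higher in both (30.01 and 36.4 TPM with OHT, 26.9 and 28.0 TPM with EtOH), and the other 5 overlapped. Over all genes tested, 19.4% were lower and 23.1% higher without overlap. Dppa3 was thus the only marker of these 7 that was lower without overlap. The part of such cells in the Rhox6 and Rhox9 values was not tested. Sums were 47.8 to 71.3 TPM with OHT and 52.0 to 58.1 TPM with EtOH for 10 primitive endoderm markers, 24.1 to 26.9 TPM with OHT and 21.1 to 23.2 TPM with EtOH for 6 Sertoli markers (Fshr at 0), and 8.69 to 12.8 TPM with OHT and 6.28 to 7.32 TPM with EtOH for 9 fibroblast markers (Postn and Twist2 at 0). Thy1 made up most of the fibroblast sum (7.64 and 10.9 TPM with OHT, 6.41 and 5.43 TPM with EtOH), and the other 8 averaged under 1 TPM. Inhbb made up most of the Sertoli sum (18.7 and 22.4 TPM with OHT, 15.4 and 17.7 TPM with EtOH). Of the 6 Sertoli markers, 4 averaged under 1 TPM, Sox9, Amh and Dhh among them. Most of the primitive endoderm sum came from Col4a1, Lama1 and Lamb1, and 3 of its 10 markers, Gata6 among them, averaged under 1 TPM. Cbx2 itself was read at 0.749 and 1.14 TPM in the OHT libraries, against 2.29 and 2.71 TPM in the EtOH libraries (log2 fold change -0.85, SE 0.19, limma adjusted p = 0.265). Of 24 PRC1 subunit genes tested none passed. At an unadjusted limma p under 0.05 stood 2 lower (8.33%, beside 4.46% of all genes) and none higher (beside 6.02%). The 2 were Cbx2 and Pcgf6 (59.8 and 66.1 TPM with OHT, 83.3 and 82.3 TPM with EtOH). Of the 24, 8 were higher without overlap (33.3%, beside 23.1% of all genes) and 2 were lower (8.33%, beside 19.4%). Next in p came Cbx8 (2.73 and 2.28 TPM with OHT, 1.81 and 1.40 TPM with EtOH) and Bcorl1 (6.22 and 9.75 TPM with OHT, 5.22 and 5.60 TPM with EtOH).

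Profiles like those of the 3 genes were sought as the smallest Euclidean distance between log2(TPM + 1) values centred over the 4 libraries, among all genes tested outside the Rhox family. With so few libraries the measure mostly reflects the size of the group difference and of the replicate gaps. Nearest to Rhox5 were Emg1 (a ribosome assembly factor gene, distance 0.015), Myc (0.0173) and Triap1 (0.0177). Nearest to Rhox6 were Slc23a4 (0.0103), Churc1 (0.0576) and Fmo1 (0.0638), and nearest to Rhox9 were Glod5 (0.0878), Rac3 (0.0969) and Fmo1 (0.113). Glod5 is the only one of these on the X chromosome. Slc23a4 (1.33 and 1.12 TPM with OHT, 2.56 and 2.44 TPM with EtOH) and Fmo1 (0.819 and 0.626 TPM with OHT, 1.89 and 1.65 TPM with EtOH) were near the filter of 1 TPM. By group means they were 51% and 59% lower, beside 37.4% for Rhox6. Their nearness thus depends on the added 1, which shrinks log2 differences of low genes. Rhox6 and Rhox9 lay 0.168 from each other; 34 genes were nearer to Rhox6 than Rhox9 was, and 8 were nearer to Rhox9 than Rhox6 was.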

How the data were processed

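The authors deposited TPM values per gene; their steps included Trim Galore and Salmon on GRCm38 (mm10), per the submitters' processing notes. Not given in the sources used here were tool versions and the annotation release. TPM keeps no depth, so no counting interval was computed. The table's other 2 value columns match no sample used here and were left out. Values were analysed as log2(TPM + 1); fold changes are on that scale and understate those of low genes. The 12029 genes averaging 1 TPM or more were fitted with limma 3.58.1 in R 4.3.3 (mean-variance trend, two-sided, Benjamini-Hochberg adjustment over all 12029, threshold 0.05), with 2 residual and 4.01 prior degrees of freedom. The fit was tested on simulated data. For Rhox5, Rhox6 and Rhox9 only values and differences are given.

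The 3 genes and the gene lists were chosen with earlier results of these data known. Named genes were the 3, Cbx2, each list's tested members where 6 or fewer and otherwise the 4 with the smallest p, the other Rhox genes above 0, and the 3 nearest profiles per gene; Rhox genes at 0, Postn, Twist2, Tpbpa and other markers were named after their values were seen. Gene models and transcripts came from GENCODE mouse release 21 (22213 identifiers matched without version), and the promoter from RefSeq (GRCm38.p6; 1 of the 3 genes matched). Figures were drawn with matplotlib 3.10.9. Alternatives were other pseudocounts, filters, scalings and moderation, a length and GC correction, a block for the replicate number, and omission of each library in turn.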

Additional observations from a re-analysis of the deposited data

How the results depend on the processing

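The differences of Rhox5, Rhox6, Rhox9 and the sum of Rhox6 and Rhox9 stayed negative under every alternative run. For each, every OHT library lay below every EtOH library in TPM, so another pseudocount or omission of a library could not change the sign. Only the scalings and the length and GC correction could have changed it. Leaving out 1 library at a time gave log2 differences of -0.26 to -0.11 for Rhox5, -0.71 to -0.59 for Rhox6, -0.88 to -0.65 for Rhox9 and -0.80 to -0.65 for the sum. The other settings moved 1 of them by more than the replicate spread, Rhox6 at a pseudocount of 5 (-0.57), as the larger pseudocount shrinks differences by construction. For Rhox5 the value was -0.26 without OHT replicate 1 and -0.11 without OHT replicate 2. The number of genes past the limma threshold was 5 (1 higher, 4 lower); it was 3 (0 higher, 3 lower) with median of ratios scaling, quantile normalization or no trend, 0 without a filter on low values (1838 at an unadjusted p under 0.05), 127 with the length and GC trend removed (73 higher, 54 lower), and 34 to 2957 with a library left out; the cause was not tested. Without OHT replicate 1 the calls were 2222 higher and 735 lower, and without OHT replicate 2 they were 728 higher and 1750 lower; without EtOH replicate 1 they were 15 higher and 31 lower, and without EtOH replicate 2 they were 12 higher and 22 lower. In these fits a lone library is assumed to vary like the other pair. Across genes, the log2 difference between replicates had an SD of 0.348 in the OHT pair and 0.178 in the EtOH pair, and it followed log2 transcript length (r = -0.53 for OHT replicate 1 minus 2, -0.27 for EtOH).

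The list counts of 0 became, with a library left out, 0 to 2 for the other Rhox genes, 0 to 6 for the flanking genes, 0 to 4 each for placenta, methylated germline genes and Rhox5 regulators, 0 to 3 each for other homeobox genes and linker histones, 0 to 5 for DNA methylation, 0 to 7 for H3K9 silencing, 0 to 6 for PRC1 and 0 to 117 for X-linked genes. With a library left out, the list medians ran from -0.0092 to 0.10 for the other Rhox genes, -0.04 to 0.09 for the flanking genes, -0.0077 to 0.27 for placenta, -0.12 to -0.08 for methylated germline genes, 0.58 to 0.70 for linker histones and -0.12 to 0.13 for X-linked genes, so 4 of these 6 changed sign. Without OHT replicate 1 the median was 0.16 for H3K9 silencing, 0.02 for DNA methylation, 0.28 for Rhox5 regulators and 0.20 for PRC1. Without OHT replicate 2 it was -0.345, -0.36, -0.13 and -0.14 in the same order, so these lists changed sign too. That of the other homeobox genes ran from 0.19 to 0.22. The counts after removal of the length and GC trend were 1 for DNA methylation (lower), 1 for linker histones (higher) and 8 for X-linked genes. Same-numbered libraries deviated together across genes (correlation 0.29), but the labels do not pair them. With the replicate number as a block, 474 genes passed (261 higher, 213 lower), among them 1 other Rhox gene, 1 flanking, 1 placenta, 1 DNA methylation and 1 PRC1 gene, 3 linker histone and 18 X-linked genes. By construction, the block leaves the differences themselves at -0.18, -0.65, -0.77 and -0.72.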
